A study of Homo sapiens with 8 samples.

Results

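GDI2, NUP98, PRRC2C and ST6GAL1 are 4 genes that each held a strong peak of trimethylated lysine 36 of histone H3 (H3K36me3) in SETD2 knockdown cells at a place where the control cells had no peak. They were chosen by measured values, the high fold enrichment of that knockdown peak and the lack of a control peak under it, so these values are given as a description and were not tested. Peaks were assigned to a gene when they overlapped its hg19 span by 1 bp or more, which gave 16 of the 23488 knockdown peaks and 2 of the 35375 control peaks.

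The study profiled H3K36me3 by ChIP-seq in HepG2, a human hepatocellular carcinoma line. The knockdown cells stably expressed an shRNA against SETD2 and the control cells a non-specific control shRNA, both delivered by lentivirus under puromycin selection. For each condition there were 2 H3K36me3 immunoprecipitates and 2 input DNA libraries, and the authors pooled the replicates for peak calling. Each condition thus has 1 list, replicate error cannot be given and the conditions could not be tested against each other. After removal of duplicates the pooled immunoprecipitates held 67053273 tags in the knockdown and 47880817 tags in the control, and the pooled inputs held 69095038 and 67158956 tags. SETD2 itself and the cell line's marker genes were not analysed here, nor was the hairpin sequence.

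SETD2 is the methyltransferase that places most H3K36me3 in human cells. It travels with elongating RNA polymerase II, so the mark lies over transcribed gene bodies, is low at the start of a gene and usually extends toward its 3' end. The design asks how H3K36me3 along genes differs between cells with and without the SETD2 shRNA, and at these 4 genes where the control peaks of the same gene lie.

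The 4 genes have unrelated roles. GDI2 encodes a Rab GDP dissociation inhibitor, which takes inactive Rab GTPases off membranes during vesicle traffic. NUP98 encodes a precursor that is cleaved into the nuclear pore proteins Nup98 and Nup96. PRRC2C encodes a large proline-rich coiled-coil protein found in stress granules. ST6GAL1 encodes the Golgi sialyltransferase that adds sialic acid to galactose at the ends of N-linked glycans, an enzyme made in quantity by liver, and the gene is known to be transcribed from several promoters. In hg19, GDI2 spans chromosome 10 from 5807186 to 5855512 (48.3 kb, minus strand) and NUP98 spans chromosome 11 from 3696240 to 3819022 (123 kb, minus strand). PRRC2C spans chromosome 1 from 171454666 to 171562650 (108 kb, plus strand) and ST6GAL1 spans chromosome 3 from 186648315 to 186796341 (148 kb, plus strand).

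No knockdown or control peak covered the 5' end of any of the 4 genes. The sequence at a RefSeq start site of each gene is shown. Peak distances are counted from the 5' end of the hg19 span and not from these sites. Each line gives 250 bases before and 50 bases after a RefSeq start site, 5' to 3' on the gene's strand, from GRCh38.p14, with each CG dinucleotide in capitals. The windows are chr10:5813385-5813684 (minus) for GDI2, chr11:3797497-3797796 (minus) for NUP98, chr1:171485280-171485579 (plus) for PRRC2C and chr3:186930276-186930575 (plus) for ST6GAL1. They are on another build than the peaks and were not placed on hg19.
GDI2: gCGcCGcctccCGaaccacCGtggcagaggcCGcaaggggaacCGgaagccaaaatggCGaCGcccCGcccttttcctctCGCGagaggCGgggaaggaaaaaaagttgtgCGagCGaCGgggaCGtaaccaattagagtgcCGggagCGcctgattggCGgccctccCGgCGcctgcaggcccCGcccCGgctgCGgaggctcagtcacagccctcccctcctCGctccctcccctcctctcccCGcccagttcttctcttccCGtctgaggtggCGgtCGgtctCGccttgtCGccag
NUP98: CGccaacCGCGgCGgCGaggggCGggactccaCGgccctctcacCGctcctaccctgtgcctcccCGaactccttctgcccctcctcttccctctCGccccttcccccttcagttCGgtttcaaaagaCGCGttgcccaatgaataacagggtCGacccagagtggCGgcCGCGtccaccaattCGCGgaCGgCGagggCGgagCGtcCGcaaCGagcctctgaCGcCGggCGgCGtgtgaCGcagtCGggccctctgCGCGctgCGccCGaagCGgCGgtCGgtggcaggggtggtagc
PRRC2C: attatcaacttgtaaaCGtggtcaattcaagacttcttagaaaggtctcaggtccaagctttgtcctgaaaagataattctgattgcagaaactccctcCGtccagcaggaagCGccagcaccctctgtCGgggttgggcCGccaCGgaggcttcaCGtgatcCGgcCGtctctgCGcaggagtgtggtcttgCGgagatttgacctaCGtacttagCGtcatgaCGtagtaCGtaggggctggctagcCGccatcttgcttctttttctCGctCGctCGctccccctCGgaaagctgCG
ST6GAL1: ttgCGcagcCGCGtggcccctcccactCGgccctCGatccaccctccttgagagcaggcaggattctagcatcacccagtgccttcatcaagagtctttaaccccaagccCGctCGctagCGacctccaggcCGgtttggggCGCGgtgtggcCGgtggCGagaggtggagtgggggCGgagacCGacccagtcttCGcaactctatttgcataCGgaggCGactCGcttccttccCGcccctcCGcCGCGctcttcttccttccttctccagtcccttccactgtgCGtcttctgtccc

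The 4 windows held 31 CG dinucleotides in GDI2, 38 in NUP98, 21 in PRRC2C and 24 in ST6GAL1, against a median of 14.0 over 35116 RefSeq windows of the same length. Of all windows, 20.7% had at least as many as GDI2, 9.91% as NUP98, 39.5% as PRRC2C and 33.9% as ST6GAL1. The motif GGGCGG, counted on both strands, occurred 3 times in the GDI2 window, 3 times in the NUP98 window and 2 times in the ST6GAL1 window. It was not found in the PRRC2C window, and 45.0% of all windows held it at least once. These are descriptions of the letters in each window.

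Over the 4 genes together, peaks covered 33.5% of the 427 kb of gene span in the knockdown and 2.55% in the control. Over the whole effective genome the order was the other way round, with 4.10% covered in the knockdown and 8.47% in the control. The genes were picked for a strong knockdown peak without a control peak under it, so nothing is read from this contrast. In the full lists all 4 genes held knockdown peaks, and PRRC2C was the 1 gene with control peaks. The caller estimates a false discovery rate (FDR) by swapping immunoprecipitate and input. With peaks held to an FDR of at most 5%, knockdown peaks were left in 2 genes, GDI2 and NUP98, and PRRC2C had a control peak and no knockdown peak. That limit is not alike in both lists, since 5.30% of all knockdown peaks and 50.5% of all control peaks met it. A control peak over PRRC2C with a score of 218.03 had an FDR of 5.23%. A knockdown peak over ST6GAL1 with a score of 213.27 had one of 55.72%. The conditions are therefore not compared by this limit. Of the 16 knockdown peaks over the genes, 13 overlapped no control peak, against 17.0% of all knockdown peaks; the genes were picked for such peaks, so nothing is read from this difference. A peak list gives tags only where a peak was called. A gene without a control peak therefore has no control tag count here, and how much H3K36me3 the control cells carried there was not measured by these lists.

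**Figure D1:**
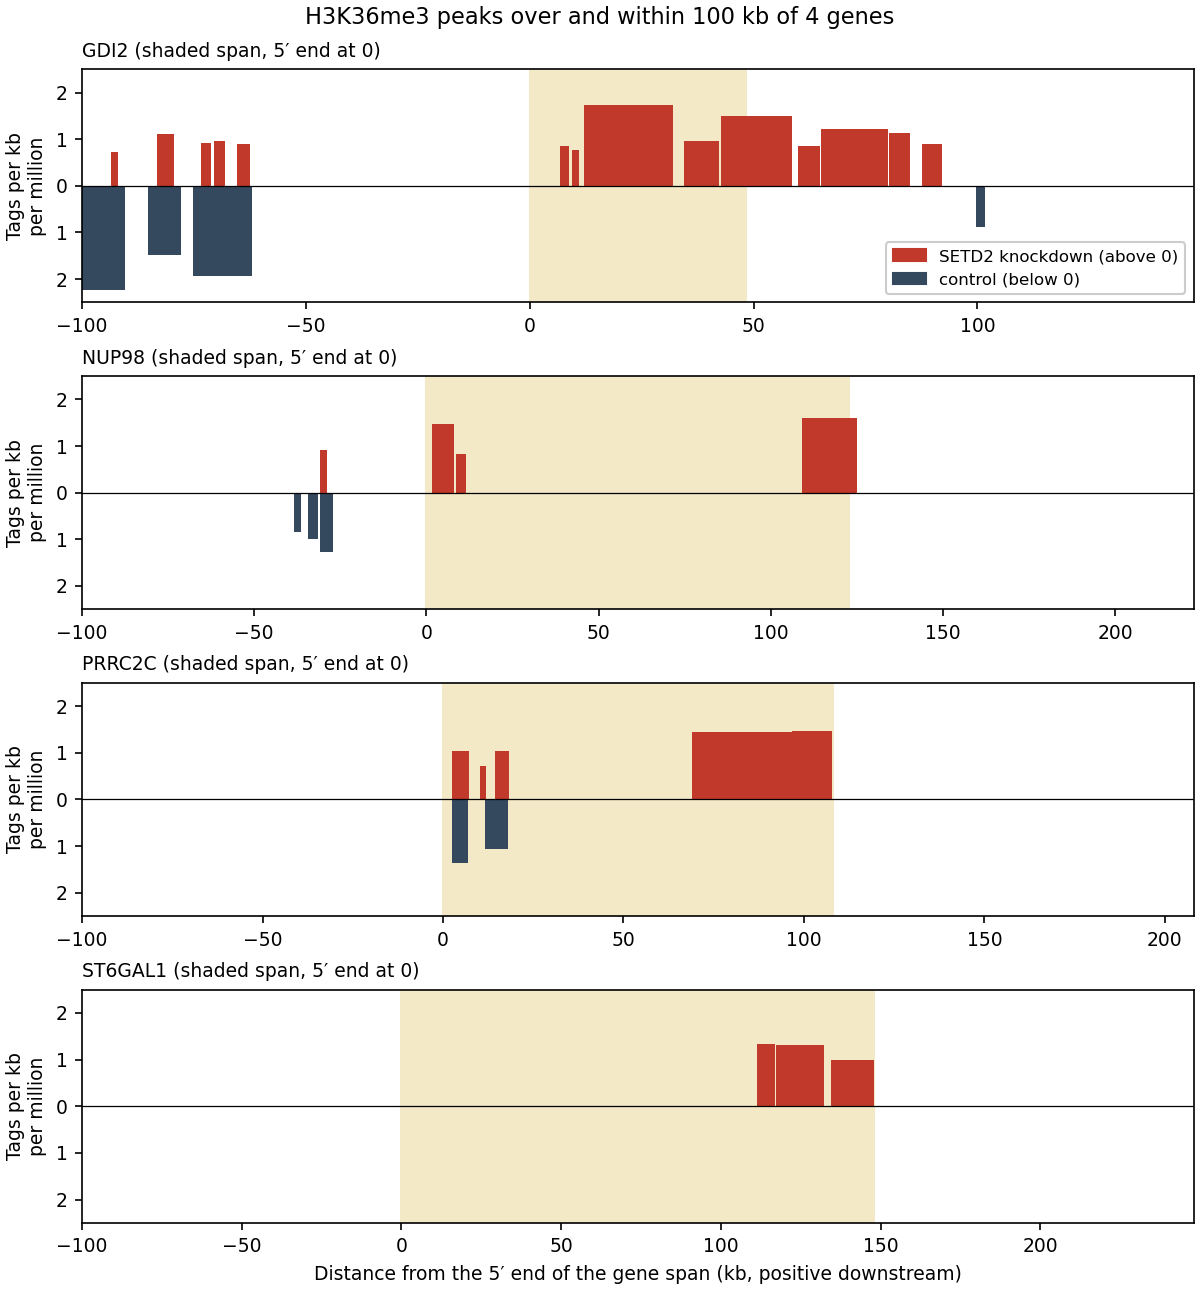
Position of each H3K36me3 peak relative to the 5' end of the gene span (x axis, kb, shaded over the span) with its tag density as height (y axis, tags per kb per 1000000 filtered tags), knockdown above and control below the line. In GDI2, NUP98 and ST6GAL1 only knockdown peaks lie over the gene, and in PRRC2C the 2 control peaks lie at the 5' side.

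The length under knockdown peaks leaned toward the 3' end. The wide peaks that chose NUP98, PRRC2C and ST6GAL1 make up much of that length, and in NUP98 no other knockdown peak lay toward the 3' end. The lean thus rests on the choice of the genes and is given as a description. The number of peaks did not lean so clearly, as narrower knockdown peaks lay near the 5' end of GDI2, NUP98 and PRRC2C. When each span was cut into 4 equal stretches, the stretch at the 3' end had the largest share under knockdown peaks in 3 of the 4 genes. That share was 95.3% in GDI2, 45.0% in NUP98, 99.1% in PRRC2C and 92.2% in ST6GAL1. In GDI2 the second stretch was covered further, over its whole length. The stretch at the 5' end was covered to 29.4% in GDI2, 30.2% in NUP98, 38.7% in PRRC2C and 0% in ST6GAL1. Control peaks covered 40.3% of the first stretch of PRRC2C and 0% of the other 15 stretches.

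**Figure D2:**
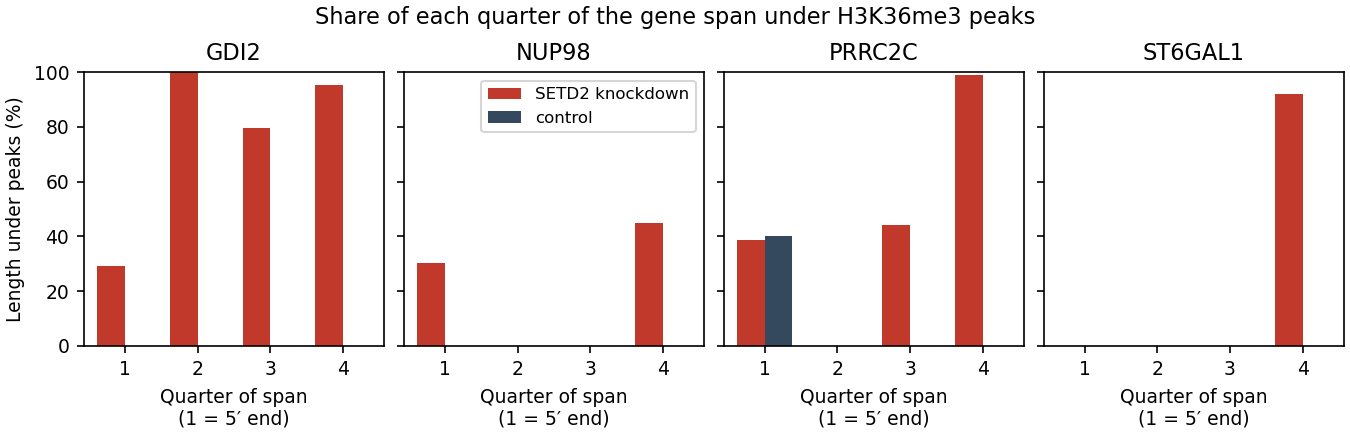
Percentage of each of 4 equal stretches of the gene span, numbered from the 5' end, that lies under H3K36me3 peaks, with the knockdown bar left of the control bar. The last stretch is covered to between 45.0% and 99.1% in the knockdown, and control bars stand above 0 in the first stretch of PRRC2C alone.

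GDI2, the Rab recycling factor, was the most fully covered, with 5 knockdown peaks over 76.1% of its span and no control peak. The peak that chose it ran on chromosome 10 from 5823517 to 5843460, from 12.1 to 32.0 kb downstream of the 5' end. It held 2305 tags, and its fold enrichment over the local input background, a value by the authors' caller that ranks peaks only within a list, was 11.15. This was the highest of the 3991 knockdown peaks without a control peak and rank 42 of all knockdown peaks. Its tag density, in tags per kb per 1000000 filtered tags, was 1.72 (exact Poisson 95% interval 1.65 to 1.80, counting error only), against 0.337 in the genome outside knockdown peaks.

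The other 4 peaks over GDI2 were weaker. A peak across the 3' end, from 5796990 to 5812702, held 1580 tags over 15.7 kb, which gives its density an interval of 1.43 to 1.58. It ran 10.2 kb beyond the gene, and 35.1% of its length lay inside the span. Between it and the strongest peak lay one from 5813273 to 5821063 with a density of 0.972 (0.890 to 1.06). On the 5' side, a small peak from 5844504 to 5846023 had a density of 0.775 (0.614 to 0.966). The last one, from 5846736 to 5848732, had 0.844 (0.696 to 1.02) and began 6.78 kb downstream of the 5' end. These small peaks had an FDR of 92.7% and 83.9%, so they were weakly supported.

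Knockdown peaks also lay beyond the 3' end of the GDI2 span. Joined across gaps of up to 3 kb, 9 knockdown peaks formed a run of 85.3 kb on chromosome 10 from 5763480 to 5848732, of which 4 peaks lay wholly beyond the 3' end of GDI2. This was the fourth widest of 2232 such knockdown runs without a control peak. Apart from the strongest peak, the peaks joined in it had an FDR of 19.5% to 92.7%, above the limit of 5%. In RefSeq the protein-coding neighbours of GDI2 are TASOR2 on the 3' side and ANKRD16 on the 5' side, and peaks outside the GDI2 span were assigned to no gene. The density over the whole run was 1.32 (1.29 to 1.35). The stretch without a control peak around it was longer still, at 162 kb, from 5755933 to 5917448, and knockdown peaks covered 46.9% of it.

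Control peaks near GDI2 lay on both sides of that stretch. The nearest one beyond the 3' end was 51.3 kb away and weak, with 95 tags, a fold enrichment of 2.39 and a density of 0.879 (0.711 to 1.07). On the 5' side the nearest control peak was 61.9 kb upstream, and here both conditions had peaks, with the lower density in the knockdown each time. The 3 knockdown peaks over the control peak from 5917449 to 5930628 ranged in density between 0.889 and 0.965, against 1.93 (1.83 to 2.05) in the control. At the next, the knockdown had 1.12 (0.998 to 1.26) and the control 1.48 (1.36 to 1.62). The third control peak in that direction, from 5945900 to 5980574, had a density of 2.24 (2.16 to 2.31), and the knockdown peaks over it had 0.715 and 0.902. At each of these 3 places the intervals of knockdown and control do not overlap. They cover counting error only and are no test between the conditions. The densities are also of unlike stretches, since each was taken across the width of its own peak. Single knockdown peaks covered 18.1% to 20.9% of the first control peak, 54.7% of the second and 4.45% and 5.77% of the third. A loss of the mark is therefore not read from these densities.

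NUP98, the nuclear pore gene, had 3 knockdown peaks at its ends and none between, and no control peak. The strongest, on chromosome 11 from 3694099 to 3710050, lay at the 3' end and ran 2.14 kb past it, toward CHRNA10, the next protein-coding gene in RefSeq. It held 1717 tags, with a fold enrichment of 10.1 (rank 3 of the knockdown peaks without a control peak), a density of 1.61 (1.53 to 1.68) and an FDR of 0%. At the other end, a peak from 3810898 to 3817368 began 1.65 kb downstream of the 5' end, with 641 tags, a fold enrichment of 5.11 and a density of 1.48 (1.37 to 1.60). Beside it a small peak from 3807655 to 3810446 had a density of 0.833 (0.708 to 0.975) and an FDR of 80.8%.

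Between the 5' and 3' peaks of NUP98 lay 97.6 kb without a knockdown peak, so 18.8% of the span was covered in all. The densities of the main peaks at both ends had overlapping intervals. Control peaks came no nearer than 27.2 kb upstream of the 5' end and 297 kb beyond the 3' end. At that upstream place a knockdown peak had a density of 0.907 (0.754 to 1.08) and the control peak over it 1.27 (1.12 to 1.45). The knockdown peak covered 53.7% of that control peak, so these densities too are of unlike stretches and no loss is read from them. PGAP2 is the RefSeq neighbour on that side. The stretch free of control peaks measured 447 kb, and 3.50% of all 35351 stretches between adjacent control peaks were longer. The median stretch was 4.53 kb. The choice of the gene required a stretch that holds a whole strong knockdown peak, so nothing is read from this share.

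PRRC2C was the gene in which both conditions had peaks, and there the control peaks lay at the 5' end, away from the strong knockdown peak. The control peaks ran from 171457060 to 171461526 and from 171466255 to 171472662 on chromosome 1, which is 2.39 to 6.86 kb and 11.6 to 18.0 kb downstream of the 5' end. A knockdown peak overlapped each of them, as was the case for 39.5% of all control peaks. At the first, the knockdown peak had a density of 1.05 (0.937 to 1.16) and the control peak 1.36 (1.21 to 1.53). The log2 ratio was -0.38. These intervals do not overlap, but they cover counting error only and are no test between the conditions. At the second, the knockdown peak with most of the overlap had 1.04 (0.923 to 1.18) and the control peak 1.07 (0.953 to 1.19). This is a log2 ratio of -0.03, within counting error. That knockdown peak covered 56.6% of the control peak, and each density is over its own peak's bounds. The density outside peaks, 0.337 in the knockdown and 0.2345 in the control, was not taken off. An unchanged mark is therefore not read from this ratio. A further knockdown peak touched the second control peak over 327 bp, with a density of 0.726 (0.581 to 0.895). Its FDR was 92.0%, so it was weakly supported, and the knockdown peaks compared above had an FDR of 39.6% and 32.3%.

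Downstream of these, PRRC2C had no peak of either list for 50.8 kb, after which knockdown peaks alone continued to the 3' end. The peak that chose the gene ran from 171523697 to 171551314, starting 69.0 kb downstream of the 5' end. It held 2684 tags over 27.6 kb, with a fold enrichment of 9.59 and a density of 1.45 (1.395 to 1.505). Its FDR was 73.0%, so it was strong by fold enrichment and tags and weakly supported by the caller's FDR. After a gap of 113 bp another knockdown peak ran from 171551428 to 171562520, with 1084 tags, a fold enrichment of 4.45 and a density of 1.46 (1.37 to 1.55). Both were denser than the knockdown peaks at the 5' end, with intervals that do not overlap. The nearest control peak was 51.0 kb from the strong peak, within the gene, and the nearest beyond the 3' end was 189 kb away.

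ST6GAL1, the sialyltransferase, had 3 knockdown peaks at the 3' end of its span and no control peak. Which of its promoters these cells used was not measured here. They followed each other from 186759608 to 186796329 on chromosome 3, a run of 36.7 kb that began 111 kb downstream of the 5' end of the span. The strongest, from 186765560 to 186780605, held 1327 tags, with a fold enrichment of 9.72, a density of 1.32 (1.25 to 1.39) and an FDR of 15.7%. The peak before it, from 186759608 to 186765174, had a similar density of 1.33 (1.22 to 1.45) at a fold enrichment of 4.41. The one after it, from 186782810 to 186796329, was lower, at 0.982 (0.918 to 1.05). The last peak ended just inside the 3' end of the gene.

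No peak of either condition lay within 100 kb of the ST6GAL1 span on either side. The nearest control peaks were 125 kb upstream of the 5' end and 642 kb beyond the 3' end, which made the stretch free of control peaks 914 kb long. Of all such stretches 1.80% were longer, a share from which nothing is read, as for NUP98. The RefSeq neighbours are ADIPOQ and RPL39L. Of the 4 strong peaks, the one in ST6GAL1 lay the farthest from a control peak, at 242 kb, against 136 kb in NUP98, 67.6 kb in GDI2 and 51.0 kb in PRRC2C. Over the other 3978 knockdown peaks without a control peak the median distance was 19.1 kb (quartiles 7.27 and 46.7 kb). All 4 lay beyond the upper quartile. The genes were chosen for a strong knockdown peak without a control peak under it, so nothing is read from these distances.

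**Figure D3:**
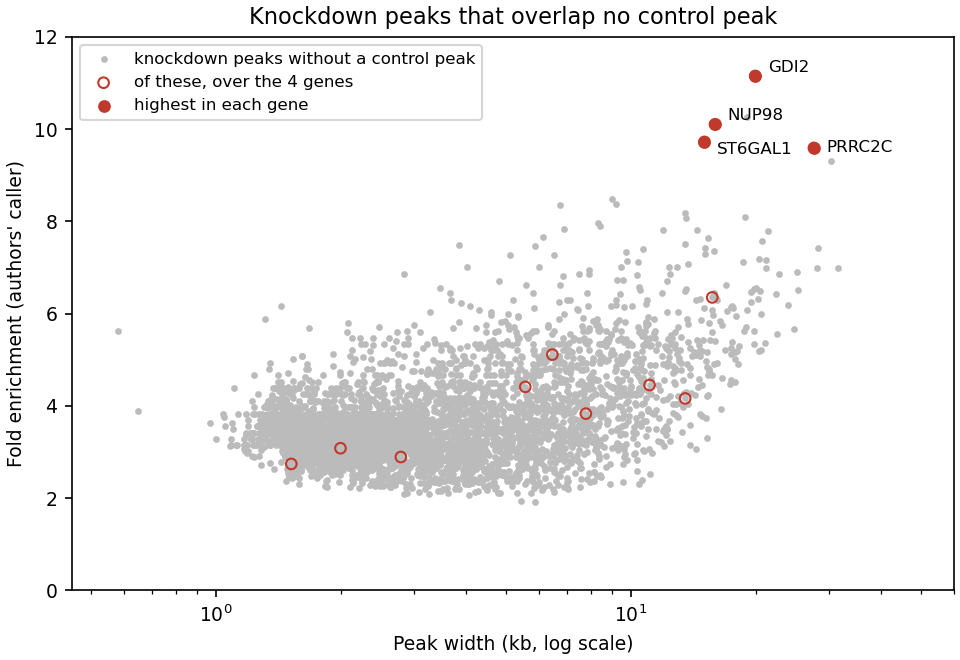
Fold enrichment by the authors' caller (y axis) against peak width in kb (x axis, log scale) for the 3991 knockdown peaks that overlap no control peak, with the 13 over the 4 genes circled and the strongest in each gene filled. The 4 filled points stand at 9.59 to 11.15 and at widths of 15.05 to 27.6 kb, in the upper right corner.

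The 4 strong peaks stood at the top of the knockdown peaks without a control peak, by the choice of the genes. The only other peak between them in fold enrichment, at 10.27, was on chromosome 1 from 66820770 to 66839792 and over none of the 4 genes. The first below the 4 had a fold enrichment of 9.31, on chromosome 11 from 47838623 to 47868905, and the next had 8.49. In all, 140 knockdown peaks reached a fold enrichment of 9.59, the value of the PRRC2C peak, and 5 of them had no control peak (3.57%, against 17.0% of all knockdown peaks). As 4 of the 5 are the chosen peaks and the limit is one of their own values, nothing is read from this share. The 4 were also wide, at 15.05 to 27.6 kb, against a median of 3.27 kb over all knockdown peaks. Their densities of 1.32 to 1.72 stood above the median of 0.907 over all knockdown peaks. Control peaks had densities from 0.667 to 13.35 with a median of 1.101, a range so wide that nothing is read from lying within it.

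The remaining 12 knockdown peaks over the genes were of mixed strength. Of these 12, 8 had a density and 8 had a fold enrichment above the median of the knockdown list. Their tags ran from 79 to 1580.

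The caller's score and FDR did not rank the 4 strong peaks as fold enrichment did. The score is the p-value against the local input as its log10 multiplied by minus 10. It was 1199.12 in GDI2, 1846.47 in NUP98, 132.89 in PRRC2C and 588.59 in ST6GAL1, and the FDR was 2.31%, 0%, 73.0% and 15.7% in the same genes. PRRC2C, with the most tags of the 4, thus had the lowest score. Among 234 knockdown peaks whose tags lay within 20% of its 2684, the median score was 626 and 36 peaks scored lower. Peaks with an FDR of 5% or less numbered 2 of the 16 over the genes, the strong peaks of GDI2 and NUP98, against 5.30% of all knockdown peaks. The same feature was seen beside GDI2, where a knockdown peak of 1218 tags and a fold enrichment of 5.87, on chromosome 10 from 5775585 to 5790379, scored 64.7.

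**Figure D4:**
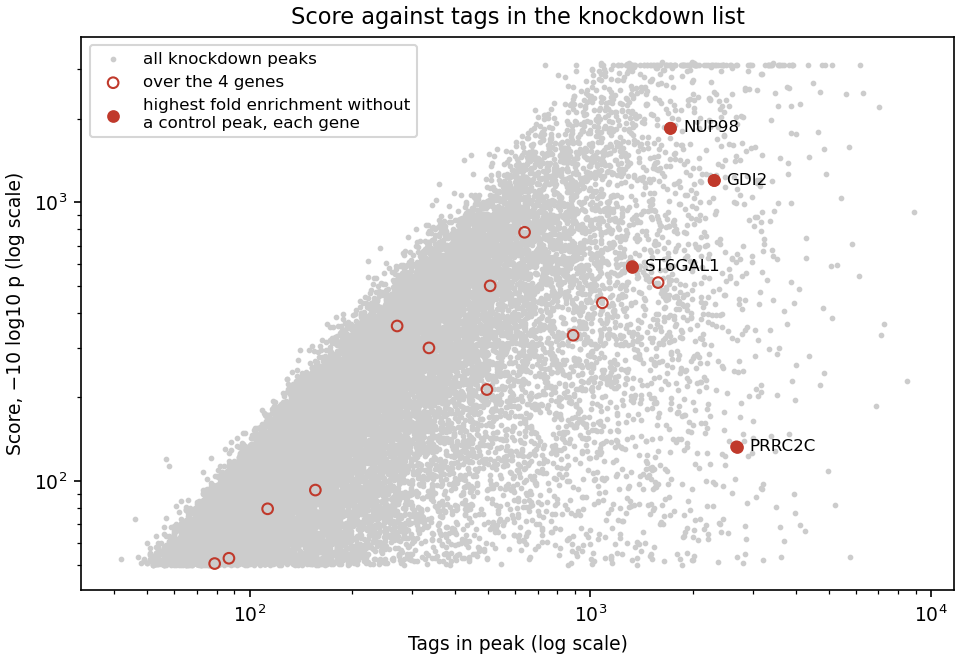
Score of each knockdown peak (y axis, minus 10 log10 p, log scale) against its tags (x axis, log scale), with all 16 peaks over the 4 genes circled and the strongest without a control peak in each gene filled. The PRRC2C peak, at 2684 tags and a score of 132.89, lies far below the NUP98 and GDI2 peaks.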

How the data were processed

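The submitters' processing notes name hg19, Bowtie 1.1.2 and FastQC 0.11.5. MACS 1.4.2 called the peaks, per the file headers, on 1 merged alignment of immunoprecipitate against 1 of input per condition, with a p-value limit of 1e-05, 1 duplicate tag kept per position and the larger dataset scaled to the smaller. The deposited tag counts are whole immunoprecipitated tags per peak, not normalized. The deposited score is minus 10 times the log10 of the peak's p-value, the deposited fold enrichment is a ratio over the local input, and the deposited FDR is in percent. The shorter deposited lists held exactly the peaks with an FDR of 5% or less.

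Peaks were matched to the 4 hg19 spans at 1 bp of overlap. Densities carry exact Poisson 95% intervals for counting error. Strands and neighbours came from RefSeq (GRCh38.p14), in which all 4 genes matched. Neighbour genes, related genes and cell type markers have no hg19 spans here, so peaks over them were not counted. The rule for named genes took the 4 members with all their peaks, and the neighbours by name. The members and lists were chosen with earlier results of these data known. Calculations used Python 3.11.15, pandas 2.3.3, NumPy 2.4.6 and SciPy 1.17.1, with matplotlib 3.10.9 for plots, and were tested on simulated data. Alternatives were stricter peak limits, other overlap rules, depth, background and rank measures.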

Additional observations from a re-analysis of the deposited data

How the results depend on the processing

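Stricter limits only remove peaks, so they cannot test the lack of control peaks over GDI2, NUP98 and ST6GAL1. With an FDR of 5% or less, or the shorter lists, peaks over the genes numbered 2 in the knockdown and 1 in the control, covered 7.90% and 1.05% of the spans, and 2 knockdown peaks had no control peak. PRRC2C and ST6GAL1 then held no knockdown peak, and the control peak was in PRRC2C. As 5.30% of all knockdown peaks and 50.5% of all control peaks met this limit, these counts are not compared between the lists. At a fold enrichment of at least 5 the counts were 6 and 1 and the coverage 20.7% and 1.05%, and with a score of 100 or more the knockdown coverage was 31.6%. With all header tags as depth the density of the peaks over a gene was 1.28 in GDI2, 1.31 in NUP98, 1.19 in PRRC2C and 1.04 in ST6GAL1 in the knockdown, and 1.03 in PRRC2C in the control, in place of 1.46, 1.49, 1.35, 1.19 and 1.19. With the density outside peaks taken off these were 1.12, 1.15, 1.02, 0.849 and 0.952. Among knockdown peaks without a control peak, ranks by tags per kb were 13 for GDI2, 25 for NUP98, 62 for PRRC2C and 143 for ST6GAL1. By score they were 34 for GDI2, 4 for NUP98, 1805 for PRRC2C and 284 for ST6GAL1. The causes were not tested. No paired analysis was possible because peak calling used pooled replicates, and no replicate could be left out. Depth limits the densities to intervals of counting error, and control tags outside peaks were not analysed here.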
